A study of Homo sapiens with 12 samples.

Results

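The averaged effect of XL413, an inhibitor of the kinase CDC7, was measured in A375 cells, a human melanoma line with a BRAF mutation. XL413 was present in 6 of the 12 libraries of the study. All 12 enter the comparison, chosen by the compound on the label and by no measured value. Of the libraries with XL413, 3 were treated with 1 µM XL413 alone and 3 with 1 µM XL413 plus 1 µM GSK343, an inhibitor of the histone methyltransferase EZH2. Of the libraries without it, 3 had the solvent DMSO and 3 had 1 µM GSK343 alone. All cells were of the same line and were treated for 24 h, and the labels name no other agent or genetic change. The averaged effect is the mean of 2 differences, XL413 minus DMSO and GSK343 plus XL413 (the combination) minus GSK343, so the GSK343 effect cancels. The labels number the replicates and the study's text calls them biological, but no label says how the cultures were separated, so the p-values measure the spread between these libraries.

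CDC7 binds its activating subunit DBF4 and phosphorylates the MCM helicase that was loaded on origins of replication in G1, which lets each origin fire in S phase. A cell that fires fewer origins replicates more slowly, and the checkpoint kinases ATR and CHK1 can hold it before mitosis. Transcripts of mitotic genes accumulate in G2, under promoters with CCAAT boxes and a cell cycle homology region, while most histone genes are transcribed in S phase into mRNAs that lack a poly-A tail. RNA of whole cultures was measured here, so more cells in a phase and more RNA per cell cannot be told apart.

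Libraries held 31553205 to 39079931 expected counts, and 18239 to 18551 genes had a count. Combination replicate 2 stood apart: its first principal component score was 36.7, against -14.5 to 8.18 in the other 11, and ribosomal protein genes took 12.2% of its counts, against 9.29 to 10.6%. Its deviation from the other combination libraries fell with transcript length (Spearman rho across genes -0.525, against -0.333 to 0.440 for the other libraries with their own groups). The fit was therefore repeated without it: 118 of the 118 genes that were named by rule below and called with 12 libraries were also called then, which the rule itself required of those named for the size of their change. The melanocyte lineage gene SOX10 was at 296 to 370 CPM (library-scaled counts, as in all levels here) and MITF at 36.6 to 50.5 CPM in all libraries. The pigment gene TYR was at 0 in all 12 libraries and MLANA at no more than 0.204 CPM. Only the melanocyte lineage was thus checked, by the lineage factors and not by pigment genes, and not the identity of the line. Leukocyte PTPRC was at no more than 0.0875 CPM, while CORO1A of the same list was at 12.8 to 17.2 CPM. Epithelial CDH1 and EPCAM were at no more than 0.172 and 0.224 CPM, while the keratin genes KRT18, KRT8 and KRT14 were at 519 to 607, 46.05 to 55.03 and 18.2 to 24.3 CPM and CLDN4 at 7.80 to 12.5 CPM. Fibroblast COL1A1 and COL1A2 were at 52.6 to 113 and 55.6 to 102.5 CPM, while DPT of the same list was at no more than 0.0296 CPM.

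The averaged XL413 effect was called in 1408 of 15443 tested genes, 9.12%, by edgeR's quasi-likelihood test at a Benjamini-Hochberg adjusted p under 0.05. Of these, 727 were higher (4.71%) and 681 lower (4.41%) with XL413. The changes were small: the median fold of a called gene was 1.144, and 14 called genes changed by at least 2-fold. Without combination replicate 2, 2145 of 15584 genes were called, 13.8%, with 1099 higher (7.05%) and 1046 lower (6.71%). The 2 fits shared 1369 calls, 709 higher and 660 lower, and 0 of these shared calls had opposite signs. The fits have all other libraries in common, which favours this. All 6 libraries with XL413 lay above all 6 without it in 337 genes (2.18%) and below them in 310 genes (2.01%). The count moved with single libraries: it was 523 to 722 without any 1 of DMSO replicates 1, 2 and 3, XL413 replicates 2 and 3, and GSK343 replicates 2 and 3. Over all tested genes the median log2 fold change was -0.006, the value against which list medians can be read.

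CDC7 itself did not pass the test. CDC7 had 22.5, 24.6 and 22.8 CPM with XL413 and 24.96, 23.6 and 25.4 CPM with the combination, against 24.7, 22.9 and 22.8 CPM with DMSO and 26.7, 25.2 and 25.1 CPM with GSK343, and its averaged log2 fold change was -0.03 ± 0.039 (± SE throughout; adjusted p = 0.617). The groups overlapped. DBF4, the activating subunit, had a value of 0.09 ± 0.031 (adjusted p = 0.0967) and its relative DBF4B one of -0.12 ± 0.054 (adjusted p = 0.164). Neither passed the test, and an inhibitor of the enzyme need not change its mRNA, so these levels do not check the treatment.

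The MCM helicase subunits moved unequally. MCM3 had 216, 221 and 221 CPM with XL413 and 204, 190.2 and 205 CPM with the combination, against 182, 180.4 and 178 CPM with DMSO and 166, 172 and 166 CPM with GSK343. Every library with XL413 was above every library without it, and the averaged log2 fold change was 0.27 ± 0.027 (adjusted p = 0.000150). MCM4 rose by 0.12 ± 0.021 (adjusted p = 0.00728) and MCM7 by 0.12 ± 0.022 (adjusted p = 0.00838) on the log2 scale, although the 6 against 6 libraries overlapped in both. MCM2 (0.05 ± 0.034), MCM5 (0.08 ± 0.029) and MCM6 (-0.04 ± 0.027) were not called with 12 libraries. Without combination replicate 2, MCM2 (0.09 ± 0.019, adjusted p = 0.00915) and MCM5 (0.09 ± 0.026, adjusted p = 0.0294) were called higher, and MCM6 was not (adjusted p = 0.493). Of the 13 genes of CDC7 and its partners, 3 were called higher and 0 lower with 12 libraries, and 5 and 0 without combination replicate 2.

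Origin licensing and firing factors were called at a share of 4% with 12 libraries, against 9.12% of all tested genes. Of 25 tested, 1 rose: GINS2, a subunit of the active replicative helicase, by 0.20 ± 0.043 (adjusted p = 0.0157). The median of the list was 0.03. GINS2 lost its call without DMSO replicate 2. The 11-library fit called 7 of the 25 higher and 0 lower, against 7.05% higher and 6.71% lower of all genes tested in it. The low share with 12 libraries thus did not hold without combination replicate 2.

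Of 33 tested genes of the replication fork and of nucleotide supply, 10 were called higher and 1 lower, with a median of 0.05. DUT, which removes dUTP and supplies the precursor of dTTP, had 152, 166 and 161 CPM with XL413 and 149, 179.9 and 152 CPM with the combination, against 122, 135 and 136 CPM with DMSO and 136, 126 and 109 CPM with GSK343. The groups did not overlap, and the averaged log2 fold change was 0.33 ± 0.060 (adjusted p = 0.00792). RPA3, the small subunit of the single-strand binding complex, rose by 0.28 ± 0.053 (adjusted p = 0.00966), and RFC3, a subunit of the clamp loader, by 0.16 ± 0.028 (adjusted p = 0.00651). Also called higher were POLA2, PCNA, RFC2, RFC4, TYMS and TK1. RRM2, the regulated subunit of ribonucleotide reductase and named because it was the only member called lower, had a value of -0.09 ± 0.024 (adjusted p = 0.0428). With the replicate number as a block, with upper quartile scaling and in at least 1 fit without a single library, 0 members were called lower. The counts were 12 and 1 when combination replicate 2 was left out.

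Of 23 genes of the G1/S transition and the E2F programme, 5 were called higher and 3 lower, with a median of 0.03. CDCA7, a partner of the chromatin remodeller HELLS, had 43.8, 45.5 and 41.2 CPM with XL413 and 45.9, 44.3 and 42.95 CPM with the combination, against 35.5, 36.01 and 35.95 CPM with DMSO and 32.6, 31.98 and 32.7 CPM with GSK343. All 6 libraries with XL413 were above the other 6, and the averaged value was 0.37 ± 0.032 (adjusted p = 0.000118). SLBP, the protein that binds the stem-loop of histone mRNAs, rose by 0.20 ± 0.039 (adjusted p = 0.0109). Both cyclins called in the list, which act in G1 and at S phase entry, were lower, as was UHRF1. CCNE2, cyclin E2, had a value of -0.19 ± 0.035 (adjusted p = 0.00763) and CCND1, cyclin D1, one of -0.16 ± 0.030 (adjusted p = 0.00849), both with all 6 libraries below the other 6.

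In the lists of mitotic entry, the anaphase-promoting complex, the kinetochore and the spindle, more members were called higher than lower. In the mitotic entry list of kinases and cyclins, 10 of 27 were called higher and 1, the cyclin F gene CCNF, lower, with a median of 0.09. CDK1, the kinase whose activity starts mitosis, had 135, 144 and 146 CPM with XL413 and 136, 148 and 144 CPM with the combination, against 104, 105 and 106 CPM with DMSO and 108, 99.8 and 102 CPM with GSK343. No library without XL413 reached the lowest library with it. The averaged log2 fold change was 0.45 ± 0.032 (adjusted p = 2.32e-05). Its cyclin partners CCNB2 and CCNB1 rose by 0.29 ± 0.031 and 0.16 ± 0.026 (adjusted p = 0.000256 and 0.00386). AURKA, the Aurora A kinase of the spindle poles, had 254, 253 and 252 CPM with XL413 and 238, 234 and 235 CPM with the combination, against 218, 217 and 219 CPM with DMSO and 199, 197 and 196 CPM with GSK343. These were narrow groups, and the difference of 0.23 ± 0.021 (adjusted p = 0.000138) left no overlap. The other 6 called higher were CDC25B, MASTL, NEK2, BUB1, PBK and CKS2.

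**Figure D1:**
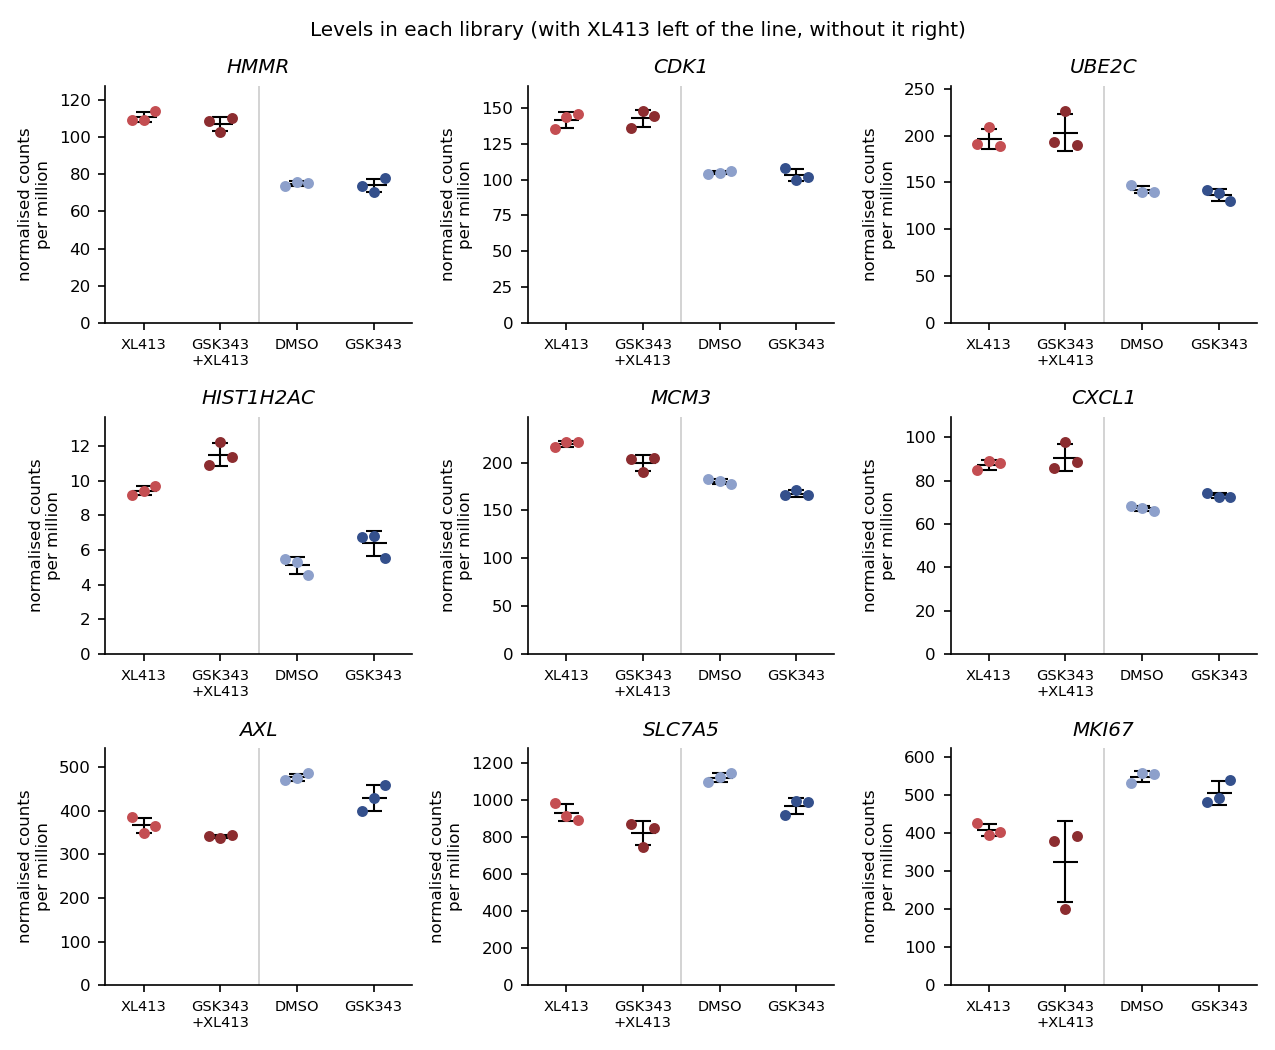
Levels of 9 named genes in each of the 12 libraries, in CPM on axes that start at 0. Points are libraries, and bars are the mean and SD of 3. HMMR, CDK1, UBE2C, HIST1H2AC, MCM3 and CXCL1 lie higher with XL413 than without it and AXL and MKI67 lower, with no overlap, while SLC7A5 overlaps.

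Of 21 genes of the anaphase-promoting complex, its activators and its substrates, 4 were called higher and 0 lower, and the median was 0.01. The 4 were not core subunits of the ligase. They were the ubiquitin-conjugating enzymes UBE2C and UBE2S, the activator CDC20 and the substrate PTTG1 (securin). UBE2C had 191, 209 and 189 CPM with XL413 and 193, 226 and 190.2 CPM with the combination, against 147, 140.1 and 140.2 CPM with DMSO and 142, 139 and 129.8 CPM with GSK343. Its groups did not overlap, and the averaged log2 fold change was 0.52 ± 0.046 (adjusted p = 0.000118). UBE2S, which extends the ubiquitin chains, rose by 0.64 ± 0.086 (adjusted p = 0.00126), PTTG1 by 0.33 ± 0.049 (adjusted p = 0.00238) and CDC20 by 0.17 ± 0.027 (adjusted p = 0.00357). Every library with XL413 was above every other library for UBE2S and PTTG1, and the groups overlapped for CDC20.

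HMMR, a microtubule-binding protein of the spindle, had the smallest p of all genes in the averaged effect. HMMR had 109, 109 and 114 CPM with XL413 and 109, 103 and 109.9 CPM with the combination, against 73.6, 75.9 and 75.3 CPM with DMSO and 73.7, 70.3 and 77.8 CPM with GSK343. The 6 libraries with XL413 were all above the other 6, and the averaged value was 0.55 ± 0.032 (adjusted p = 3.44e-06). Of 33 spindle and cytokinesis genes, 7 were called higher and 3 lower, with a median of 0.01. PRC1, the bundler of the central spindle, rose by 0.20 ± 0.027 (adjusted p = 0.00129). The kinesins KIF4A and KIF2C rose by 0.26 ± 0.039 and 0.17 ± 0.024 (adjusted p = 0.00320 and 0.00201). The count was 15 higher and 5 lower, with a median of 0.05, when combination replicate 2 was left out.

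Of 42 kinetochore and centromere genes, 10 were called higher and 2 lower, with a median of 0.04. CENPH, of the inner kinetochore, had 61.1, 63.1 and 63.5 CPM with XL413 and 61.7, 71.05 and 63.8 CPM with the combination, against 50.9, 49.8 and 53.4 CPM with DMSO and 48.4, 47.3 and 46.9 CPM with GSK343. The groups did not overlap, and the averaged value was 0.37 ± 0.037 (adjusted p = 0.000150). The centromeric histone H3 variant gene CENPA rose by 0.42 ± 0.064 (adjusted p = 0.00320) and BIRC5, survivin, by 0.23 ± 0.035 (adjusted p = 0.00320). The 2 lower genes were CENPE and CENPF. Over the 4 mitotic lists, 24 of the genes called higher have a promoter in the RefSeq table used here.

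Promoters of mitotic genes are shown for members of these lists that were called higher. Each runs from 250 bases before the start of the gene to 50 bases after it, 5′ to 3′ on the strand of the gene, from RefSeq on GRCh38.p14. Capitals mark the letters CCAAT or TTTGAA (the cell cycle homology region) on either strand. HMMR lies at chr5:163460382-163460681 on the plus strand and CCNB2 at chr15:59104896-59105195 on the plus strand.
HMMR: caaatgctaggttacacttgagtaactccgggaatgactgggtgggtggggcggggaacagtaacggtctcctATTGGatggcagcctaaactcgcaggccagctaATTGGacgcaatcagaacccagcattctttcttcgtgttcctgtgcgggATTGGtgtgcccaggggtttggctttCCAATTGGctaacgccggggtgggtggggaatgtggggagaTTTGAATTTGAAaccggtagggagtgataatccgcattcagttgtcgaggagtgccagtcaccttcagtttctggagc
CCNB2: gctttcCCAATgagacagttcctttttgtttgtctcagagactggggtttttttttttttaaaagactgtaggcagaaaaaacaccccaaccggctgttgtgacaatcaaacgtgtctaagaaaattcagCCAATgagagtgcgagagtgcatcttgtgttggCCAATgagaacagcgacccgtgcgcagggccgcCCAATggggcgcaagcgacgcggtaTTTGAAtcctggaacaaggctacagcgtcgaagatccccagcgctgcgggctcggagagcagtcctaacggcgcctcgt
HMMR holds TTTGAA at -28 and again, next to it, at -22, and 5 matches to CCAAT or its reverse complement, 2 of which overlap. CCNB2 holds TTTGAA at -29 and 4 CCAAT. These 2 promoters do not stand for all members called higher. CENPA holds TTTGAA at -18 and CDK1 at -161, while CCNB1 and UBE2S hold CCAAT but no TTTGAA. Of the 24 mitotic list genes called higher, 14 (58.3%) hold TTTGAA and 18 (75%) hold CCAAT. Of the 80 mitotic list genes not called higher, 40 (50%) and 47 (58.8%) do. Over all 27305 promoters in the table the shares were 15.9% and 35.4%, and over the 12088 tested genes with a promoter they were 10.2% and 36.7%. Among all 588 genes called higher with a promoter they were 13.1% and 45.2%, and among 562 called lower they were 9.96% and 39.3%. These are matches of letters, given as a description, and the windows follow 1 RefSeq start for each gene.

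MKI67, the gene of the proliferation marker Ki-67, which coats mitotic chromosomes, was called lower. MKI67 had 425, 395 and 402 CPM with XL413 and 379, 200.5 and 392 CPM with the combination, against 530.5, 556 and 555 CPM with DMSO and 481, 492 and 539 CPM with GSK343. Combination replicate 2 was far below every other library, and the 6 libraries with XL413 were below the 6 without it also when that library was set aside. The averaged log2 fold change was -0.53 ± 0.12 (adjusted p = 0.0202), and -0.40 ± 0.031 (adjusted p = 2.58e-06) without combination replicate 2. Its call with 12 libraries was lost without DMSO replicate 2, XL413 replicates 2 or 3, or GSK343 replicate 3, and with the robust dispersion estimate. CENPE, a kinetochore motor, had a value of -0.53 ± 0.079 (adjusted p = 0.00270), and -0.45 ± 0.046 (adjusted p = 2.9e-05) without that library. CENPE was also below in all 6 libraries. In separate fits of the 2 backgrounds it was at -0.23 for XL413 minus DMSO and -0.82 for the combination minus GSK343. Without combination replicate 2 the latter value was -0.67. In the list of chromosome structure genes, 1 of 16, the decatenating enzyme TOP2A, was called higher and 4 lower, with a median of -0.06. TOP2A rose by 0.28 ± 0.049 (adjusted p = 0.00675), and the cohesin subunit SMC3 had a value of -0.24 ± 0.036 (adjusted p = 0.00317). CTCF, which anchors chromatin loops, had one of -0.19 ± 0.041 (adjusted p = 0.0151), and the cohesin subunit RAD21 was the other member called lower.

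Several genes that fell have long transcripts. MKI67, CENPE and AKAP9 have longest transcripts of 12678, 8612 and 12471 nt, against a median of 3311 nt over all tested genes with a length. Genes called higher had a median length of 2252 nt and genes called lower one of 4357 nt. Across 14962 genes the averaged log2 fold change had a Spearman rho of -0.346 with length, and -0.191 across the genes of the fit without combination replicate 2. In 4 length classes of equal size, 8.77% of the shortest genes were called higher and 1.34% lower, and 1.42% and 6.52% of the longest. With combination replicate 2 left out the shares were 10.7% and 3.02% of the shortest class, and 4.19% and 10.8% of the longest. An offset for length and GC content, fitted in each library over the genes, removes such a trend by construction. The rho of -0.0098 with it is therefore no result. In that fit 1022 genes were called higher and 1257 lower. With the offset MKI67 had a value of -0.45 (adjusted p = 0.000721), HMMR one of 0.54 (adjusted p = 2.89e-07), CENPE one of -0.45 (adjusted p = 9.74e-05) and AKAP9 one of -0.48 (adjusted p = 8.1e-05).

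**Figure D2:**
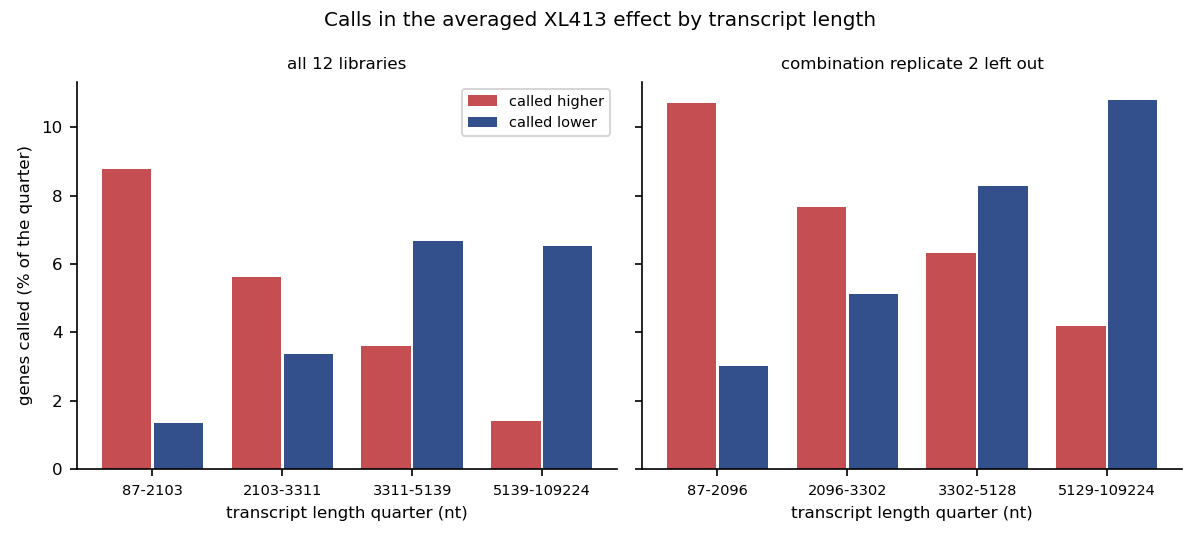
Share of genes called higher and lower in the averaged XL413 effect, in percent of each of 4 equal classes of genes by the length of the longest transcript in nt, with all 12 libraries (left) and without combination replicate 2 (right). The shortest class has 8.77% higher and 1.34% lower, and the longest 1.42% and 6.52%, with all 12 libraries.

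Some golgins and 2 centrosome scaffold genes were among these lower genes. Of 15 golgins, the coiled-coil tethers of the Golgi, 0 were called higher and 5 lower, with a median of -0.08. GOLGA4 had a value of -0.42 ± 0.053 (adjusted p = 0.000851) and TRIP11 one of -0.36 ± 0.050 (adjusted p = 0.00172). For both, all 6 libraries with XL413 were below the other 6. In separate fits of the 2 backgrounds GOLGA4 was at -0.20 for XL413 minus DMSO and -0.64 for the combination minus GSK343. The values of TRIP11 were -0.20 and -0.51. Without combination replicate 2 the latter values were -0.55 for GOLGA4 and -0.44 for TRIP11. The averages therefore stand for unequal estimates, although edgeR called 0 genes in the interaction. GCC2 fell by 0.29 ± 0.055 on the log2 scale (adjusted p = 0.00923) and GOLGA3 by 0.14 ± 0.040 (adjusted p = 0.0408), and GOLGB1 was the other member called. With the length and GC content offset GOLGA3 was no longer called (-0.05, adjusted p = 0.336). Of 35 centrosome scaffold genes, 2 were called lower, AKAP9 (-0.57 ± 0.095, adjusted p = 0.00513) and CEP290 (-0.43 ± 0.055, adjusted p = 0.00111), and 1 higher, CEP57 (0.13 ± 0.035, adjusted p = 0.0408). The share called in this list was 8.57%, against 9.12% of all tested genes. In the separate fits AKAP9 was at -0.25 for XL413 minus DMSO and -0.88 for the combination minus GSK343. The values of CEP290 were -0.18 and -0.67. The call of CEP57 was lost without any 1 of 11 libraries and that of GOLGA3 without any 1 of 8. The list median was -0.08 with 12 libraries and -0.01 without combination replicate 2, where the counts were 4 higher and 4 lower.

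Histone genes gave some of the largest rises. Of 62 clustered histone genes in the table, 28 were removed as too low, and of the 34 tested 5 were called higher and 0 lower, with a median of 0.24. A member that was kept because it was high with XL413 had to differ, so the median describes these 34 only. HIST1H2AC, which encodes an H2A, had 9.19, 9.43 and 9.71 CPM with XL413 and 10.9, 12.2 and 11.3 CPM with the combination, against 5.51, 5.30 and 4.55 CPM with DMSO and 6.77, 6.82 and 5.56 CPM with GSK343. Every library with XL413 was above every library without it, and the averaged log2 fold change was 0.87 ± 0.068 (adjusted p = 4.49e-05). The H2B genes HIST1H2BK and HIST1H2BD rose by 0.71 ± 0.067 and 0.67 ± 0.087 (adjusted p = 0.000144 and 0.00114). HIST3H2A, from the small cluster on chromosome 1, rose by 0.57 ± 0.075 (adjusted p = 0.00120), and HIST1H2BJ, a gene with few counts, by 1.23 ± 0.19 (adjusted p = 0.00331). All 5 had no overlap between the libraries with and without XL413. Poly-A selection leaves out most replication-dependent histone mRNA, so these counts cover only transcripts with a poly-A tail, and reads shared by near-identical histone genes were divided by estimate. H1F0, the linker histone gene that is not replication-dependent and was chosen after its values were seen, had a value of -0.25 ± 0.023 (adjusted p = 0.000144).

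The promoter of HIST1H2AC, listed by RefSeq as H2AC6, is shown because this gene had no overlap and was called under every alternative tried. It lies at chr6:26123922-26124221 on the plus strand, and capitals mark CCAAT or its reverse complement.
HIST1H2AC: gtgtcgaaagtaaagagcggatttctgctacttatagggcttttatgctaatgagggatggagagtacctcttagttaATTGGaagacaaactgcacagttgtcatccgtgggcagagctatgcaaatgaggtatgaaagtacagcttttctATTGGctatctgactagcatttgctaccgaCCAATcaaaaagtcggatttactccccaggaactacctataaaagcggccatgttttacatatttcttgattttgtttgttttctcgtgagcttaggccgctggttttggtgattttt
It holds 3 such matches, at -172, -98 and -68, and none to TTTGAA.

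Repair and checkpoint genes were called at a share of 10.8% and p53 targets at 7.41%, both near the 9.12% of all tested genes. Of 37 genes of homologous recombination, the Fanconi pathway and the checkpoint, 3 were called higher and 1 lower, with a median of -0.01. CHEK2, a checkpoint kinase gene, had 16.97, 16.3 and 17.1 CPM with XL413 and 17.3, 18.2 and 16.5 CPM with the combination, against 15.1, 12.98 and 13.04 CPM with DMSO and 14.03, 14.1 and 13.5 CPM with GSK343. The groups did not overlap, and the averaged value was 0.31 ± 0.048 (adjusted p = 0.00358). ATRIP, the partner of ATR, rose by 0.25 ± 0.041 (adjusted p = 0.00493), while FANCA had a value of -0.18 ± 0.034 (adjusted p = 0.00925). In the fit without combination replicate 2, 6 were called higher and 1 lower. Of 27 p53 targets, 1 was called higher, CCNG1 (0.14 ± 0.033, adjusted p = 0.0224), and 1 lower, PLK2 (-0.15 ± 0.028, adjusted p = 0.00748), with a median of 0.04. The call of CCNG1 was lost without any 1 of 5 libraries.

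**Figure D3:**
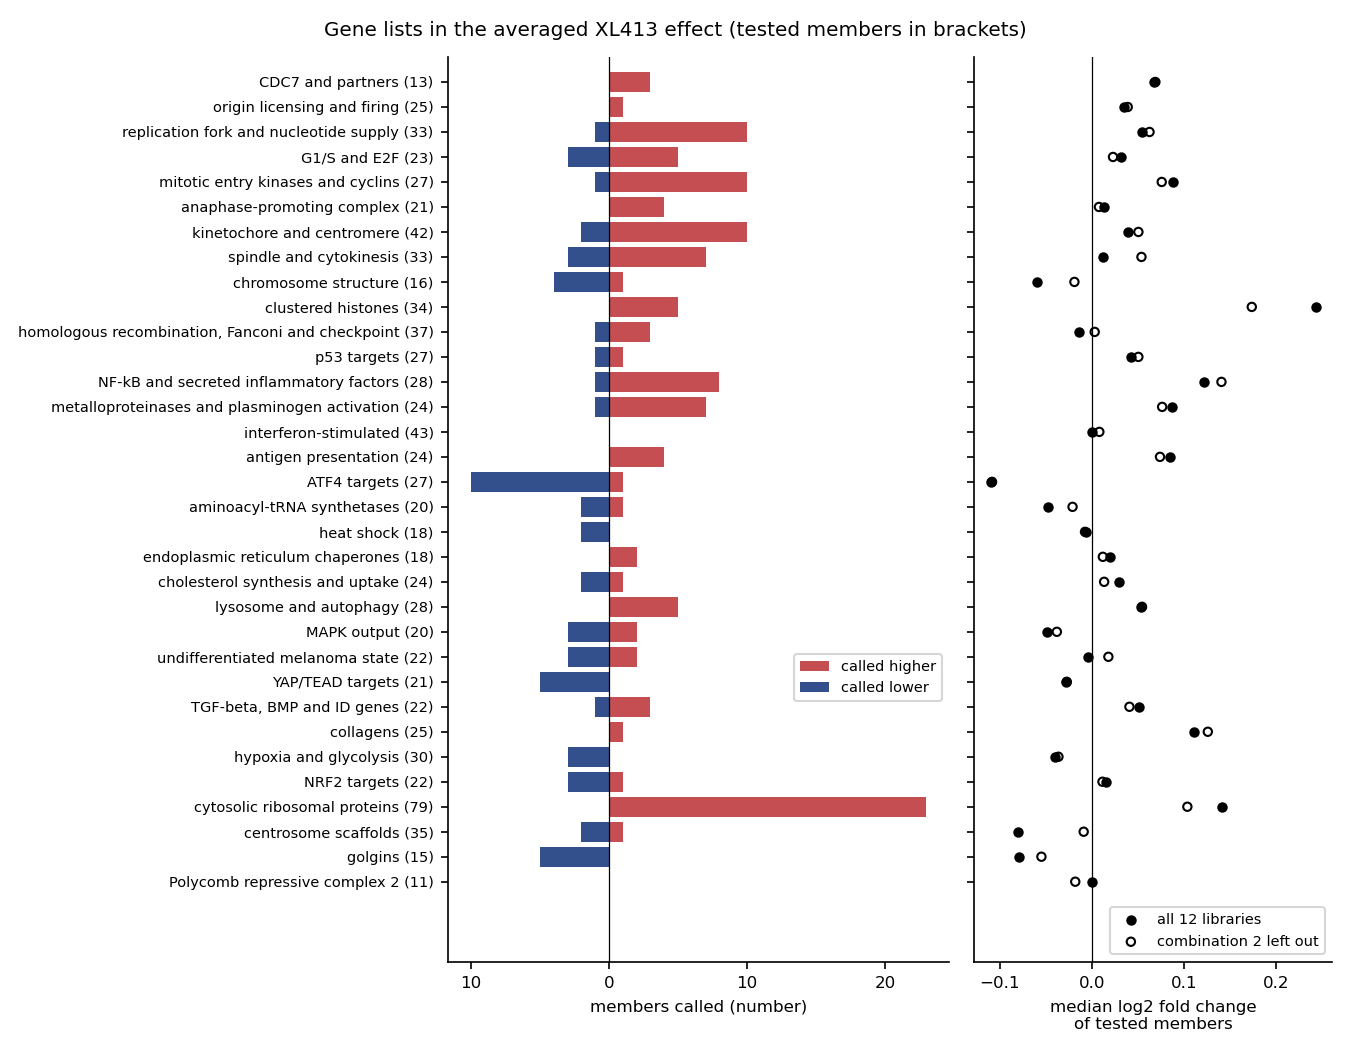
Members called higher (red) and lower (blue) in the averaged XL413 effect for 33 gene lists, as numbers of genes (left), and the median log2 fold change of the tested members (right) with all 12 libraries (filled) and without combination replicate 2 (open). The ATF4 targets have 10 called lower and 1 higher, and the ribosomal proteins 23 higher and 0 lower.

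Genes for secreted inflammatory factors were mostly called higher where they were called. Of 28 tested genes of the NF-kB and inflammatory list, 8 were called higher and 1, the cytokine gene IL24, lower, with a median of 0.12. By background the list median was 0.17 for XL413 minus DMSO and 0.03 for the combination minus GSK343, so the average stands for unequal medians. CCL2, a chemokine that attracts monocytes, had 14.9, 15.9 and 16.2 CPM with XL413 and 17.1, 20.6 and 17.4 CPM with the combination, against 10.7, 9.90 and 8.91 CPM with DMSO and 12.5, 12.02 and 11.3 CPM with GSK343. The groups did not overlap, and the averaged log2 fold change was 0.65 ± 0.061 (adjusted p = 0.000144). CXCL1, a chemokine for neutrophils, had 84.8, 89.0 and 88.2 CPM with XL413 and 85.9, 97.7 and 88.6 CPM with the combination, against 68.2, 67.4 and 66.1 CPM with DMSO and 74.6, 72.7 and 72.5 CPM with GSK343. All 6 libraries with XL413 were above the other 6 here too, and the averaged value was 0.34 ± 0.034 (adjusted p = 0.000150). CXCL8, interleukin-8, rose by 0.33 ± 0.037 (adjusted p = 0.000427) and the adhesion gene ICAM1 by 0.21 ± 0.034 (adjusted p = 0.00440), with overlap for ICAM1. The other 4 called higher were LIF, CSF2, NFKBIA, which encodes the inhibitor of NF-kB, and NFKB2. Of 43 interferon-stimulated genes 0 were called in either direction, against 9.12% of all tested genes, and the median was 0.00. LGALS3BP and IFITM3, named for their mean CPM, had values of 0.04 ± 0.025 and 0.13 ± 0.042 (adjusted p = 0.365 and 0.0750). In the fit without combination replicate 2, 2 of the 43 were called higher, IFITM3 among them (adjusted p = 0.0380), and DESeq2 also called 2 higher with all 12 libraries.

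The CXCL1 promoter is shown for its match to GGAATTTCC, the letters of an NF-kB site, which are in capitals. It lies at chr4:73869143-73869442 on the plus strand.
CXCL1: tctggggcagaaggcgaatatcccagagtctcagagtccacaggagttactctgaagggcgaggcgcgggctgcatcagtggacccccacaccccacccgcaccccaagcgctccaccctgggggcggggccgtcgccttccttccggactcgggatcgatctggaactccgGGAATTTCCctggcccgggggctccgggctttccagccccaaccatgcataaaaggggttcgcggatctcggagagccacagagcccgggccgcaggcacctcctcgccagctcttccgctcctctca
The match begins at -78. Of the 6 inflammatory genes called higher that have a promoter in the table, 4 (66.7%) hold these letters on either strand, and of the 18 not called higher 5 (27.8%) do. The share was 0.476% over all promoters in the table and 0.447% over the tested genes with one.

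Secreted proteases showed a similar split. Of 24 tested genes of metalloproteinases and plasminogen activation, 7 were called higher and 1 lower, with a median of 0.09. MMP1, interstitial collagenase, had 15.5, 16.7 and 16.5 CPM with XL413 and 22.2, 22.2 and 23.04 CPM with the combination, against 12.3, 11.8 and 13.1 CPM with DMSO and 14.8, 17.2 and 15.6 CPM with GSK343. Each group with XL413 was above its own control, with overlap only between XL413 alone and GSK343 alone, and the averaged value was 0.45 ± 0.046 (adjusted p = 0.000199). MMP2, gelatinase A, rose by 0.21 ± 0.028 (adjusted p = 0.00120) and PLAU, urokinase, by 0.53 ± 0.10 (adjusted p = 0.0106), both with no overlap. MMP3, MMP9, MMP13 and SERPINE2 were the others called higher. ADAMTS6 was the member called lower (-0.57 ± 0.068, adjusted p = 0.000639), with all 6 libraries below. Of 24 antigen presentation genes 4 were called higher and 0 lower, with a median of 0.08. The share called was 16.7%, against 9.12% of all tested genes. B2M, the light chain of HLA class I, rose by 0.23 ± 0.046 (adjusted p = 0.0115), and HLA-DPB1, HLA-DRA and HLA-DPA1 of class II by 0.19 ± 0.045, 0.15 ± 0.036 and 0.13 ± 0.031 (adjusted p = 0.0246, 0.0273 and 0.0230). The count was 1 to 6 when single libraries were left out, which ended the call of HLA-DRA in 7 cases, of HLA-DPA1 in 6 and of HLA-DPB1 in 5.

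Of 27 targets of ATF4, the transcription factor of the amino acid and stress response, 10 were called lower and 1 higher, with a median of -0.11, and 11 and 2 without combination replicate 2. SLC7A5, which carries large neutral amino acids, had 984, 916 and 896 CPM with XL413 and 871, 748 and 849.9 CPM with the combination, against 1098, 1124 and 1146 CPM with DMSO and 919.8, 997 and 989 CPM with GSK343. Within each background all 3 libraries with XL413 were below their controls, although GSK343 alone overlapped XL413 alone. The averaged value was -0.25 ± 0.039 (adjusted p = 0.00366). SLC7A11, the cystine transporter, fell by 0.29 ± 0.050 (adjusted p = 0.00618) and ATF5, a related factor, by 0.15 ± 0.026 (adjusted p = 0.00583), both with all 6 libraries below the other 6. SHMT2, which makes glycine in mitochondria, fell by 0.13 ± 0.026 (adjusted p = 0.0126). ATF4 itself, ASNS, PSAT1, SLC3A2, DDIT4 and XPOT were the others called lower, and CEBPB was called higher. Single libraries moved the count: 5 were lower without DMSO replicate 1 and 6 without DMSO replicate 2. Of 20 aminoacyl-tRNA synthetases, VARS (-0.15 ± 0.026, adjusted p = 0.00543) and MARS (-0.11 ± 0.025, adjusted p = 0.0163) were called lower and QARS (0.10 ± 0.024, adjusted p = 0.0278) higher, with a median of -0.05. The share called among the synthetases was 15%, against 9.12% of all tested genes, and QARS lost its call without any 1 of 6 libraries.

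The promoter of ASNS, asparagine synthetase, was chosen after its values were seen, as a called ATF4 target with a match to TGATGNAA, shown in capitals. ASNS had a value of -0.12 ± 0.029 (adjusted p = 0.0220) and lies at chr7:97872359-97872658 on the minus strand.
ASNS: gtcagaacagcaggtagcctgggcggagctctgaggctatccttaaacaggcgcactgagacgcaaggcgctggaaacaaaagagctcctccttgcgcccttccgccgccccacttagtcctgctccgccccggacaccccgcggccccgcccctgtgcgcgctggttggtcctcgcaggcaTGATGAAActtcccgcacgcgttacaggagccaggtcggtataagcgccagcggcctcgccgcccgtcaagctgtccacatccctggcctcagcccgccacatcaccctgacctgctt
The match begins at -68. Of the 8 ATF4 targets called lower with a promoter, 2 (25%) hold it, and of the 13 not called lower 3 (23.1%) do, against 3.83% over all promoters and 1.8% over the tested genes with one.

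In other stress and metabolic lists the share called ranged from 10% (hypoxia and glycolysis) to 18.2% (NRF2 targets). Over all tested genes it was 9.12%. Both heat shock calls, of 18 genes, were the near-identical neighbours HSPA1A (-0.17 ± 0.032, adjusted p = 0.00773) and HSPA1B (-0.20 ± 0.043, adjusted p = 0.0145), both lower, whose reads cannot be separated with certainty. Of 18 endoplasmic reticulum chaperone genes 2 were called higher, CRELD2 (0.22 ± 0.060, adjusted p = 0.0349) and the stress factor gene XBP1 (0.18 ± 0.048, adjusted p = 0.0340). Each of these calls was lost without any 1 of 8 libraries, and the count was then as low as 0. Of 30 hypoxia and glycolysis genes 0 were called higher and 3 lower. HK2, hexokinase, had a value of -0.24 ± 0.041 (adjusted p = 0.00615) with all 6 libraries below, and the glucose transporter gene SLC2A1 one of -0.09 ± 0.023 (adjusted p = 0.0272). The number lower was 8 when combination replicate 2 was left out. Of 22 NRF2 targets, HMOX1 (-0.19 ± 0.050, adjusted p = 0.0352), OSGIN1 (-0.26 ± 0.072, adjusted p = 0.0389) and SLC7A11 were called lower and ME1 (0.16 ± 0.035, adjusted p = 0.0193) higher. Of 24 cholesterol genes, CYP51A1 (-0.17 ± 0.034, adjusted p = 0.0111) and DHCR7 (-0.13 ± 0.032, adjusted p = 0.0262) were called lower and FDFT1 (0.12 ± 0.031, adjusted p = 0.0335) higher. Leaving out single libraries ended the call of HMOX1 in 10 cases, of OSGIN1 in 9, of FDFT1 in 8, of DHCR7 and SLC2A1 in 5 each and of ME1 in 3, and OSGIN1 also lost its call with the replicate number as a block. Of 28 lysosome and autophagy genes 5 were called higher and 0 lower, among them the hydrolase genes CTSZ (0.25 ± 0.051, adjusted p = 0.0116), HEXA (0.18 ± 0.033, adjusted p = 0.00795) and GLA (0.20 ± 0.034, adjusted p = 0.00583) and the cholesterol carrier gene NPC2 (0.20 ± 0.042, adjusted p = 0.0150).

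Genes of melanoma cell state and of growth signalling moved in both directions. AXL, a receptor kinase typical of undifferentiated melanoma, had 386, 349.7 and 366 CPM with XL413 and 344, 338 and 344 CPM with the combination, against 471, 476 and 486 CPM with DMSO and 400.2, 431 and 460 CPM with GSK343. All 6 libraries with XL413 were below the other 6, and the averaged value was -0.36 ± 0.035 (adjusted p = 0.000150). In the undifferentiated state list of 22 genes, SOX9 (-0.34 ± 0.066, adjusted p = 0.0109) and TEAD4 (-0.13 ± 0.037, adjusted p = 0.0436) were called lower too, and TGFBI (0.22 ± 0.030, adjusted p = 0.00127) and TWIST1 higher, with a median of 0.00. TWIST1 had a value of 0.22 ± 0.063 (adjusted p = 0.0467) and was not called without combination replicate 2 (adjusted p = 0.0511), and TEAD4 lost its call with the replicate number as a block and without any 1 of 9 libraries. MITF, the master regulator of melanocytes, was lower too, with 39.6, 36.6 and 38.2 CPM with XL413 and 39.7, 39.8 and 42.7 CPM with the combination, against 43.2, 43.5 and 44.7 CPM with DMSO and 43.5, 45.7 and 50.5 CPM with GSK343. Its groups did not overlap and its averaged value was -0.20 ± 0.041 (adjusted p = 0.0129), the only call among 12 tested melanocyte lineage genes. Of 21 YAP and TEAD targets 5 were called lower and 0 higher, with a median of -0.03. They were AXL, TEAD4, AJUBA (-0.21 ± 0.033, adjusted p = 0.00395), AMOTL2 (-0.22 ± 0.037, adjusted p = 0.00558) and CRIM1 (-0.24 ± 0.048, adjusted p = 0.0109).

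The output of the MAPK pathway was split. Of 20 genes, the ERK phosphatase gene DUSP6 (0.11 ± 0.024, adjusted p = 0.0165) and IER3 (0.20 ± 0.041, adjusted p = 0.0129) were called higher. DUSP4 (-0.12 ± 0.028, adjusted p = 0.0188), CCND1 and MYC were called lower, and the median was -0.05. The share called was 25%, against 9.12% of all tested genes. Of 22 genes of TGF-beta and BMP signalling, FST, which binds and blocks activins, was called lower (-0.29 ± 0.030, adjusted p = 0.000167). BMP4 (0.30 ± 0.058, adjusted p = 0.0109), ID1 (0.30 ± 0.086, adjusted p = 0.0467) and the activin subunit gene INHBB (0.66 ± 0.16, adjusted p = 0.0251), which was below 1 CPM in every library, were called higher. Leaving out single libraries ended the call of ID1 in 9 cases, of INHBB in 6, of DUSP4 in 3 and of DUSP6 without DMSO replicate 3. Of 25 collagen genes 1 was called higher, COL13A1 (0.19 ± 0.039, adjusted p = 0.0121), with a median of 0.11. This share of 4% was near the 4.71% of all tested genes called higher. Without combination replicate 2, 6 were called higher, against 7.05% of all genes tested in that fit. Of 11 genes of Polycomb repressive complex 2, the complex of EZH2, 0 were called, against 9.12% of all tested genes. Whether so short a list differs from that share was not tested. RBBP7 and RBBP4, named for their mean CPM, had values of 0.01 ± 0.021 and 0.04 ± 0.030 (adjusted p = 0.726 and 0.421). With combination replicate 2 left out, 1 of the 11 was called higher, and DESeq2 called 1 higher and 1 lower with 12 libraries.

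All 79 cytosolic ribosomal protein genes had an estimate above 0, of which 23 were called higher and 0 lower, with a median of 0.14. RPL39 had 698, 838 and 820.4 CPM with XL413 and 844, 979.6 and 879 CPM with the combination, against 679.7, 616 and 631 CPM with DMSO and 798, 689.7 and 637 CPM with GSK343. The libraries with and without XL413 overlapped, as they did for every member of the list, and the averaged value was 0.32 ± 0.061 (adjusted p = 0.00980). RPL12, RPL22 and RPL27A rose by 0.20 ± 0.041, 0.21 ± 0.045 and 0.23 ± 0.051 (adjusted p = 0.0125, 0.0156 and 0.0182). Without DMSO replicate 2 the calls of RPL22 and RPL27A were lost, and without XL413 replicate 2 that of RPL27A. The count was 32, with a median of 0.10, without combination replicate 2. It ranged from 2 to 36 as single libraries were left out, with 2 without DMSO replicate 2, 3 without XL413 replicate 2, and 4 or 5 without XL413 replicate 3, GSK343 replicates 2 or 3, or DMSO replicate 3. The median transcript length in this list was 1170 nt, among the short genes described above, and with the length and GC content offset 25 members were called higher.

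Markers of other cell types moved as follows. Of 6 tested leukocyte markers 1 was called, LAPTM5, a lysosomal membrane protein of blood cells, with 3.004, 3.46 and 2.56 CPM with XL413 and 3.78, 2.96 and 3.07 CPM with the combination, against 1.57, 1.42 and 2.20 CPM with DMSO and 2.21, 1.84 and 2.35 CPM with GSK343. Its groups did not overlap and its averaged value was 0.70 ± 0.13 (adjusted p = 0.00792). The summed level of the 14 leukocyte markers was 20.8 to 22.1 CPM with XL413 and 19.9 to 21.9 CPM with the combination, against 16.9 to 18.5 CPM with DMSO and 17.5 to 19.2 CPM with GSK343, and TYROBP was at 0 in all libraries. Most of this sum was CORO1A, at 12.8 to 17.2 CPM. Of the 6 tested members 4 had an estimate above 0, and 1 lay lower in all 6 libraries with XL413. The list median was 0.26 for XL413 minus DMSO and -0.04 for the combination minus GSK343. Of 8 epithelial markers 2 were called higher, KRT8 (0.13 ± 0.032, adjusted p = 0.0275) and CLDN4 (0.32 ± 0.091, adjusted p = 0.0444), and each call was lost without any 1 of 6 libraries. Their list summed to 651 to 684 CPM with XL413 and 611 to 676 CPM with the combination, against 661 to 692 CPM with DMSO and 593 to 615 CPM with GSK343. Of 11 fibroblast markers 0 were called, and COL1A1 and COL1A2 had values of 0.20 ± 0.11 and 0.11 ± 0.093 (adjusted p = 0.243 and 0.467). The fibroblast list summed to 245.5 to 291.8 CPM with XL413 and 227.2 to 242.9 CPM with the combination. With DMSO it summed to 225 to 284.2 CPM and with GSK343 to 163.5 to 247.2 CPM.

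Among genes called in both fits with a mean of at least 1 log2 CPM and the same sign in both backgrounds, the largest rise was that of C4orf48, with 18.5, 21.9 and 11.2 CPM with XL413 and 16.6, 20.1 and 10.4 CPM with the combination, against 5.82, 4.89 and 10.03 CPM with DMSO and 7.23, 6.59 and 3.67 CPM with GSK343. The groups did not overlap, although they were wide, and the averaged value was 1.37 ± 0.23 (adjusted p = 0.00537). TMEM160 (1.00 ± 0.26, adjusted p = 0.0309) and C17orf89, a complex I assembly factor gene (0.82 ± 0.15, adjusted p = 0.00697), came next outside the histones, both with overlap. TMEM160 lost its call without any 1 of 7 libraries, CDH6 and LOC100129917 without DMSO replicate 2, and LOC100129917 also without GSK343 replicate 3. CD24, a surface glycoprotein gene, had a value of 0.63 ± 0.12 (adjusted p = 0.0110) and also overlapped. The largest falls were FAM196B (-0.76 ± 0.12, adjusted p = 0.00407) and BCYRN1, a noncoding RNA of 200 nt. BCYRN1 had 42.03, 48.3 and 48.8 CPM with XL413 and 46.01, 42.6 and 50.2 CPM with the combination, against 78.2, 64.4 and 65.2 CPM with DMSO and 73.95, 87.8 and 70.6 CPM with GSK343. All 6 libraries with XL413 were below the other 6, and the averaged value was -0.66 ± 0.069 (adjusted p = 0.000199). This RNA derives from an Alu repeat, so its reads depend on how repeats were divided. RTEL1, a helicase of telomeres and forks, fell by 0.49 ± 0.060 (adjusted p = 0.000744) with no overlap, and PDE3A (-0.52 ± 0.089, adjusted p = 0.00612), CDH6 (-0.56 ± 0.13, adjusted p = 0.0186) and LOC100129917 (-0.54 ± 0.12, adjusted p = 0.0187) were also among the 10.

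The 2 backgrounds were then compared in separate fits that share no library. In the 6 XL413 and DMSO libraries alone, 1394 genes were called, 680 higher and 714 lower. In the 6 combination and GSK343 libraries alone, edgeR called 0 genes, with 1809 at an unadjusted p under 0.05, and without combination replicate 2 it called 51, 28 higher and 23 lower. Of the 680 genes higher with XL413 alone, 647 (95.1%) were also above 0 with GSK343 present, against 48.7% of all genes tested there. Of the 714 lower genes, 713 were tested there and 699 (98%) were below 0, against 51.3% of all. The median log2 fold change of the higher genes was 0.19 with GSK343 present and 0.19 in the fit that called them, and that of the lower genes -0.16 and -0.16. Without combination replicate 2, 662 of 680 (97.4%) and 701 of 714 (98.2%) kept their sign, with medians of 0.15 and -0.12. With the length and GC content offset in both fits the shares were 94.2% and 93.7%. Across 14895 genes the 2 effects had a Spearman rho of 0.499, a description over genes of the same libraries that are not independent of each other.

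**Figure D4:**
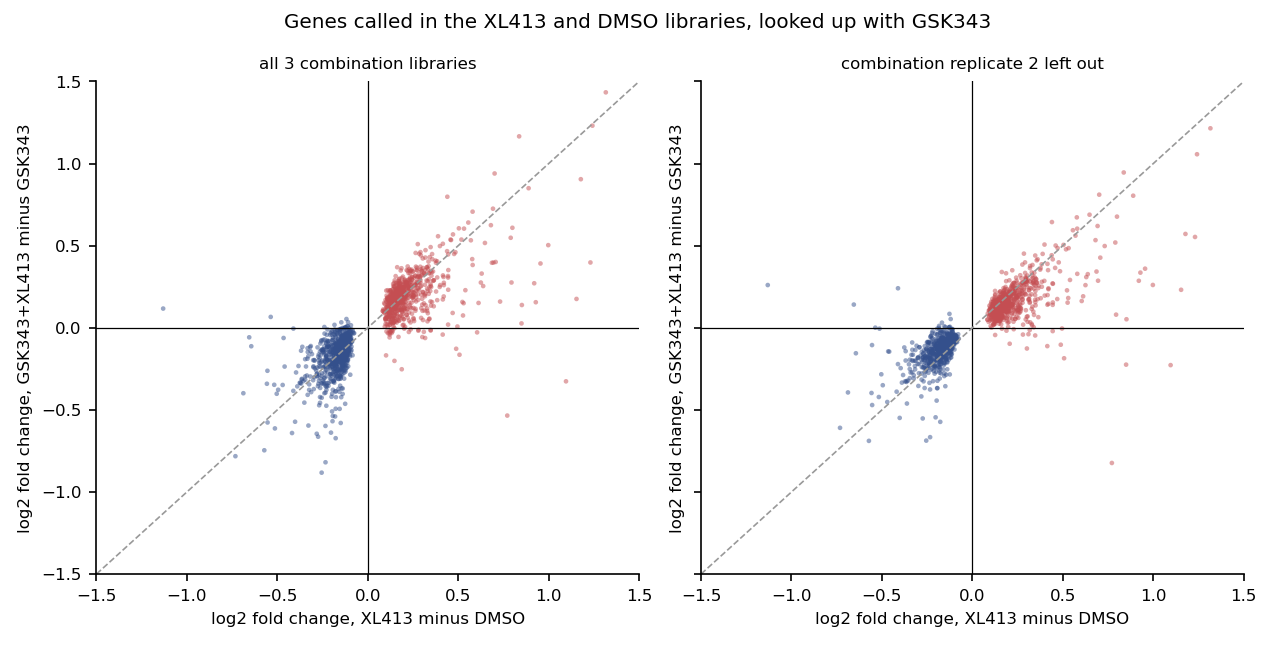
Log2 fold change of XL413 minus DMSO against that of the combination minus GSK343, from separate fits that share no library, for the 1394 genes called in the first (red higher, blue lower), with all 3 combination libraries (left) and without combination replicate 2 (right). The dashed line marks equal effects. Of the genes, 5 lie outside an axis in at least 1 panel. Most points share a sign.

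The difference between the XL413 effects with and without GSK343 was tested as an interaction. In the 12-library fit edgeR called 0 genes, with 413 at an unadjusted p under 0.05 and a smallest adjusted p of 0.766, and DESeq2 called 2. Without combination replicate 2, edgeR called 0, with 438 at an unadjusted p under 0.05. For each background on its own, the 12-library fit called 66 genes in XL413 minus DMSO and 152 in the combination minus GSK343, and the fit without combination replicate 2 called 756 and 243. Of the 1408 genes called in the average, 1407 had the same sign in both backgrounds, a count that calling on the average favours. The exception was CA9, the hypoxia-induced carbonic anhydrase, with 1.78, 2.05 and 1.80 CPM with XL413 and 1.46, 1.38 and 1.06 CPM with the combination, against 1.42, 2.02 and 1.11 CPM with DMSO and 3.33, 2.99 and 3.48 CPM with GSK343. GSK343 alone was above all other libraries, XL413 alone was above the combination, and DMSO overlapped both of these. Its value was 0.30 ± 0.20 for XL413 minus DMSO and -1.33 ± 0.19 for the combination minus GSK343, with an interaction of -1.63 ± 0.28 (adjusted p = 0.766), so its averaged value of -0.51 ± 0.14 (adjusted p = 0.0368) describes neither background, and that call was lost without any 1 of 9 libraries.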

How the data were processed

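Poly-A RNA of A375 cells was sequenced in 12 strand-specific libraries, 3 in each of 4 groups assigned by the labels. The deposited table holds RSEM expected counts per gene, estimated read counts not scaled between libraries, for which the submitters' processing notes name hg38, Bowtie2 2.1.0 and RSEM 1.2.15. No source used here gives the annotation, the strand setting or any filter. Reads shared by near-identical genes are split by estimate, so paralogs, overlapping genes and repeats depend on that step.

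Expected counts were rounded and tested in R 4.3.3 with edgeR 4.0.16: low genes were removed by filterByExpr (minimum count of 10 and total of 15; 15443 genes kept, 11032 removed), followed by TMM scaling and a quasi-likelihood fit with 1 coefficient per group and 8 residual degrees of freedom. Two-sided p-values were adjusted over all tested genes by Benjamini-Hochberg, with calls at an adjusted p under 0.05. Each SE was derived from the log2 fold change and its F statistic. CPM are counts scaled to the TMM-adjusted library size. The median SE was 0.06, or 0.05 without combination replicate 2, which limits the changes that can be called. The fitting steps were run on simulated counts with known changes. These held no outlying library and no trend with length, so that check does not cover either. Transcript length and GC content came from the longest basic transcript of GENCODE 29 on GRCh38: 23872 gene names matched, 732 more by another name, and 1869 did not. Promoters came from RefSeq on GRCh38.p14, 1 for each of 12088 tested genes.

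The comparison, the gene lists and the rule for naming genes were chosen with earlier results of these data known. The rule named the 10 largest rises and 10 largest falls called in both fits, with a mean of at least 1 log2 CPM and 1 sign in both backgrounds. It added CDC7, DBF4, DBF4B and MCM2 to MCM7, up to 4 called members of each list by p, and 2 members by mean CPM of lists with none called. Other members named to complete a count were chosen after their values were seen. A few list members are counted but not reported here by name. Alternatives were other scalings, filters and tools (DESeq2 1.42.0, limma 3.58.1), a minimum fold, the replicate number as a block, an offset for length and GC content, and leaving out each library.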

Additional observations from a re-analysis of the deposited data

How the results depend on the processing

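The averaged effect called 1408 genes, 727 higher and 681 lower. limma-voom with quality weights called 2830 (1394 higher, 1436 lower), a model without GSK343 778 (444 and 334), a test against a minimum fold of 1.2 called 7 (6 and 1), and the length and GC content offset 2279, of which 1257 were lower. Leaving out single libraries gave 523 to 2145 calls, 282 to 1099 higher and 241 to 1046 lower. The lowest counts were without DMSO replicate 2 and the highest without combination replicate 2. Without combination replicate 2, leaving out a further library gave 986 to 2723 calls, 483 to 1404 higher and 503 to 1319 lower, and the length and GC content offset, chosen after seeing the data, called 1650 lower. The replicate number as a block gave 1376 calls, 695 higher and 681 lower, and 1923 without combination replicate 2. Most same-numbered libraries did not deviate together (18 pairs, correlations -0.155 to 0.138, median -0.040, 2 over 0.1), so the number was not taken as a pairing. Differently numbered pairs were not compared. DESeq2 called 2 genes in the interaction, where edgeR called 0. Separate fits of 6 libraries called 1394 genes for XL413 against DMSO, where the joint fit called 66, and 0 for the combination against GSK343, where it called 152. The cause of these shifts was not tested. Over 3370 pairs of a named gene and an alternative, 3031 kept their direction and side of the threshold, 326 lost and 12 gained a call, and 1 reversed: RBBP7, not called, was at -0.0194 with the length and GC content offset. Of 118 called named genes, 88 kept their call without each single library and 30 lost it without at least 1. The losses were most frequent for CEP57 (11 libraries), HMOX1 (10), and CA9, TEAD4, ID1 and OSGIN1 (9 each). HIST1H2AC, HIST1H2BK, CCL2, BCYRN1, CDK1, UBE2C and HMMR were called under every alternative tried, and the minimum fold ended the call of the other 111. By list, single libraries moved the higher calls from 8 to 12 for mitotic entry, 8 to 12 for the kinetochore, 6 to 12 for the fork, 2 to 7 for G1/S, 7 to 9 for the inflammatory list and 5 to 9 for the proteases. They moved the lower calls from 3 to 6 for golgins and 1 to 8 for hypoxia. With 3 libraries a group, small changes of genes with few counts could not be resolved.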

Other observations

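Among genes in none of the lists, chosen after their values were seen by their small p, KPNA2, an importin that carries proteins into the nucleus, was called higher in the averaged effect with all 6 libraries above the other 6 (0.22 ± 0.021, adjusted p = 0.000150). ARL6IP1 (0.26 ± 0.026, adjusted p = 0.000150), the pentraxin gene PTX3 (0.39 ± 0.045, adjusted p = 0.000492), CREG1 (0.38 ± 0.048, adjusted p = 0.000851) and IGFBP7, which encodes a secreted binding protein (0.33 ± 0.043, adjusted p = 0.00101), were called higher with no overlap either. The transcription factor gene ATOH8 had 4.84, 4.97 and 4.98 CPM with XL413 and 5.36, 6.41 and 6.30 CPM with the combination, against 3.21, 3.88 and 3.01 CPM with DMSO and 3.81, 4.05 and 3.72 CPM with GSK343, with a value of 0.60 ± 0.078 (adjusted p = 0.00119) and no overlap. The long noncoding RNAs UCA1 (-0.27 ± 0.030, adjusted p = 0.000319) and NEAT1 (-0.29 ± 0.032, adjusted p = 0.000349) were called lower, with overlap between the 6 and 6 libraries. SNAPC1, a subunit of the complex that activates transcription of small nuclear RNA genes, was lower in all 6 (-0.26 ± 0.026, adjusted p = 0.000150). All 9 of these genes were also called without combination replicate 2.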
